A study of Mus musculus with 72 samples.

Results

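The urea cycle genes described here were the 8 rows of the liver count table whose Ensembl identifiers map to Cps1, Otc, Ass1, Asl, Arg1, Nags, Slc25a13 and Slc25a15, out of 55573 genes in the table. They were chosen by name and not by a cut on any measured value, although earlier results of these data were known. All 8 passed the filter on low counts in every comparison. Liver RNA came from male C57BL/6 mice (C57BL/6J in the study's methods) in 4 groups of 18, with 3 mice at each of 6 Zeitgeber times (ZT, hours after lights on): ZT2, ZT6, ZT10, ZT14, ZT18 and ZT22. The SPF WT mice carried Bmal1 fl/fl and harboured a specific-pathogen-free gut microbiota, SPF LKO mice carried Bmal1 fl/fl Albumin-Cre under the same status, and GF WT and GF LKO mice were the same genotypes raised without microbes (germ free, GF). The floxed allele was thus shared by all 4 groups, and controls carried no Cre. Albumin-Cre acts in hepatocytes, so the other cells of the liver keep Bmal1, the activating arm of the circadian clock. GF mice came from a rederived colony kept in isolators, so microbial status and housing cannot be told apart. All were adults fed one autoclaved chow, and the labels give no age.

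The urea cycle is the route by which the liver converts ammonia from amino acid breakdown into urea for excretion. It begins in the mitochondrion, where CPS1 joins ammonia and bicarbonate into carbamoyl phosphate and OTC passes this to ornithine to make citrulline, and it ends in the cytosol, where ASS1 and ASL build and split argininosuccinate and ARG1 releases urea from arginine. In liver the pathway is concentrated in hepatocytes around the portal vein, and its enzymes are known to respond to dietary protein, glucagon and glucocorticoids.

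Depth was even: the 72 libraries held 17369927 to 22076113 counts. The members took 0.681% to 1.28% of all counts. Levels are given as CPM, the counts of a gene scaled to library size with TMM factors. The hepatocyte markers Alb, Apoa1, Ttr and Serpinc1, 4 of 5 listed, were abundant everywhere, with summed levels of 36771 to 159990 CPM. Most of this sum was Alb, which was lower in LKO than in WT livers, with a log2 fold change of -0.98 in SPF and -1.70 in GF mice. The list as a whole did not follow Alb. Of the 4 markers, 1 was called higher and 1 lower in SPF LKO mice (median log2 fold change -0.019). In GF LKO mice 0 were higher and 2 lower (median -0.10). The range of the deleted gene over all ZT did not check the labels, since Arntl (Bmal1) reads spanned 8.52 to 29.3 CPM in SPF LKO and 0.626 to 39.5 CPM in SPF WT libraries. The highest SPF LKO value came from ZT18 replicate 1, beside 11.4 and 11.9 CPM in its group. Npas2, which is known to rise when Bmal1 is lost, exceeded every WT library of the same ZT in 18 of 18 GF LKO and 17 of 18 SPF LKO libraries. The exception was the library labelled SPF LKO ZT18 replicate 1, with 1.83 CPM against 36.4 and 27.6 CPM in its group. The library labelled SPF LKO ZT14 replicate 2 had 0.22 CPM against 25.2 and 24.0 CPM, near the WT libraries of that ZT. Both went against their label. SPF WT ZT14 replicate 3 and GF WT ZT6 replicate 3 stood apart from their groups in clock genes, with Nr1d1 at 84.8 CPM against 8.55 and 3.07 CPM in the former and 9.39 CPM against 51.1 and 49.1 CPM in the latter. Results that rest on these 4 libraries are given with and without them.

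Cps1 (ENSMUSG00000025991, chromosome 1, 67123026 to 67231259 of GRCm38, plus strand), the rate-setting enzyme of the cycle, was by far the most abundant of the members, taking 52.8% of their reads. Per kilobase of exon its level was 944 ± 186 CPM (SD, n = 72 libraries), ranking 56 among all genes. Arg1 (ENSMUSG00000019987, chromosome 10, 24915221 to 24927484, minus strand), the arginase that releases urea, was next with 730 ± 149 CPM per kilobase, and Cps1 exceeded it in 68 of 72 libraries. Ass1 (ENSMUSG00000076441, chromosome 2, 31470207 to 31520672, plus strand), which condenses citrulline with aspartate, followed with 335 ± 79.5 CPM per kilobase. Otc (ENSMUSG00000031173, chromosome X, 10252305 to 10321024, plus strand) had 179 ± 23.8 CPM per kilobase. These 4 levels stood in the same order in nearly every library, with Arg1 above Ass1 and Ass1 above Otc in 72 of 72.

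The remaining members were lower. Slc25a15 (ENSMUSG00000031482, chromosome 8, 22375551 to 22398597, minus strand), the mitochondrial ornithine and citrulline exchanger, had 117 ± 31.2 CPM per kilobase. Asl (ENSMUSG00000025533, chromosome 5, 130011258 to 130029247, minus strand), which splits argininosuccinate into arginine and fumarate, had 102 ± 44.5 CPM per kilobase. Slc25a13 (ENSMUSG00000015112, chromosome 6, 6041218 to 6217173, minus strand), the citrin carrier that brings mitochondrial aspartate to the cytosol, had 74.9 ± 10.9 CPM per kilobase. Neighbours in this part of the order overlapped: Slc25a15 exceeded Asl in 46 of 72 libraries and Asl exceeded Slc25a13 in 51 of 72. Nags (ENSMUSG00000048217, chromosome 11, 102145513 to 102149477, plus strand), which makes the N-acetylglutamate that CPS1 requires, was lowest in 72 of 72 libraries at 18.3 ± 3.36 CPM per kilobase. Nags exons share 443 bases with the antisense gene Gm11586, and reads were counted without strand, so some reads of the locus could not be assigned to either gene. No other member shares exon bases with another gene of the table. Asl was the most variable member, spanning 209 to 1016 CPM, whereas Otc spanned 571 to 978 CPM.

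**Figure D1:**
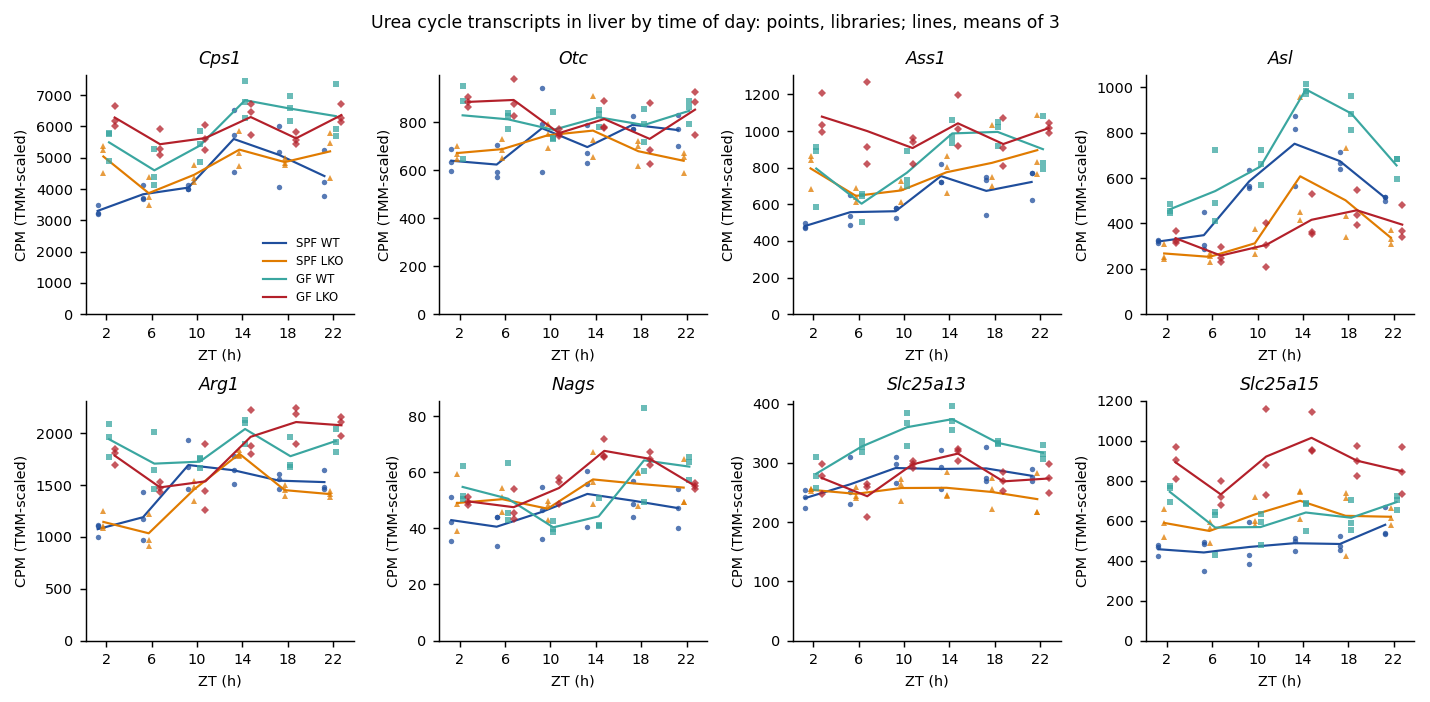
Levels of the 8 members against ZT in hours, in TMM-scaled CPM, with each point a library, each line the means of 3 libraries, and colours for the 4 groups. Asl in GF WT mice rises to 991 CPM at ZT14 while GF LKO mice stay between 259 and 458 CPM, and Slc25a15 in GF LKO mice lies above all other groups at every ZT.

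The comparison of LKO with WT mice addresses which members differ when Bmal1 is deleted in hepatocytes. Since the controls carried no Cre, loss of Bmal1 and presence of Cre cannot be told apart. The changes ran in opposite directions: Asl and Slc25a13 were lower in LKO livers, Ass1 and Slc25a15 were higher, and Cps1, Otc, Arg1 and Nags did not pass the test, both in SPF and in GF mice. In SPF mice 4 of 8 members were called at an adjusted p under 0.05 (edgeR quasi-likelihood F test, Benjamini-Hochberg over every gene tested), where 23.1% of all 13159 genes tested were called. In GF mice it was again 4 of 8, against a background of 30.8%. The median log2 fold change of the members was 0.04 in SPF and 0.02 in GF mice, beside -0.0054 and 0.0082 over all genes tested.

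Asl showed the largest genotype difference of the members. In SPF WT livers the lowest, median and highest Asl levels were 290, 537 and 872 CPM, against 232, 320 and 957 CPM in SPF LKO livers. The WT level was generally higher, but the ranges overlapped, and the highest SPF LKO value was the ZT14 replicate 2 library described above. The log2 fold change was -0.49 (SE 0.17, adjusted p = 0.034), and the LKO mean was lower at 6 of 6 ZT. Asl carried 957 CPM in that library against 415 and 452 CPM in the other ZT14 LKO libraries, and 735 CPM in the ZT18 replicate 1 library against 433 and 339 CPM. Without these 2 libraries the log2 fold change was -0.73 (SE 0.14, adjusted p = 6.77e-05). In GF mice Asl ranged from 411 through a median of 685 to 1016 CPM in WT and from 209 through 360 to 547 CPM in LKO livers. Here all 3 LKO libraries lay below all 3 WT libraries at 6 of 6 ZT, although the ranges over the whole day overlapped. The log2 fold change was -0.94 (SE 0.13, adjusted p = 2.56e-07), a 1.92-fold lower level. In SPF mice the Asl call was lost when any of 8 single libraries was left out, with adjusted p up to 0.060, and with no filter on low counts (adjusted p = 0.058). Among the 8 were SPF WT ZT14 replicates 1 and 2 (adjusted p = 0.057 and 0.060), and the others were SPF LKO ZT2 replicates 1 and 3, ZT6 replicates 1 to 3 and ZT10 replicate 1.

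Slc25a15 moved the other way. Its lowest, median and highest levels were 349, 481 and 670 CPM in SPF WT and 422, 604 and 747 CPM in SPF LKO livers, so the groups overlapped while the LKO values sat higher. The log2 fold change was 0.34 (SE 0.07, adjusted p = 0.00038). In GF livers the levels were 429, 647 and 773 CPM for WT and 677, 889 and 1160 CPM for LKO, and all 3 LKO libraries exceeded all 3 WT libraries at 6 of 6 ZT. The log2 fold change there was 0.48 (SE 0.07, adjusted p = 1.69e-06). The lowest SPF LKO value, 422 CPM, was again the ZT18 replicate 1 library, beside 712 and 739 CPM in its group.

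Ass1, the enzyme acting directly before ASL, was higher in LKO livers. Its levels ran from 468 through a median of 603 to 819 CPM in SPF WT and from 611 through 736 to 1088 CPM in SPF LKO livers, with a log2 fold change of 0.29 (SE 0.08, adjusted p = 0.0076). In GF mice they ran from 506 through 889 to 1082 CPM in WT and from 809 through 991 to 1268 CPM in LKO livers, with a log2 fold change of 0.25 (SE 0.08, adjusted p = 0.022). The ranges overlapped in both, and the LKO mean was higher at 6 of 6 ZT in SPF and 5 of 6 ZT in GF mice. The GF call of Ass1 was lost with no filter on low counts (adjusted p = 0.053).

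Slc25a13 was modestly lower, from a mean of 276 ± 30.3 to 251 ± 20.5 CPM in SPF (SD, n = 18 each, log2 fold change -0.14, SE 0.05, adjusted p = 0.030) and from 332 ± 34.6 to 279 ± 29.2 CPM in GF mice (log2 fold change -0.25, SE 0.05, adjusted p = 0.00027). In GF mice the LKO libraries lay below all WT libraries at 5 of 6 ZT, whereas in SPF mice the ranges overlapped at 6 of 6 ZT. In SPF mice the call was lost with no filter (adjusted p = 0.11) and without SPF WT ZT14 replicate 2 or SPF LKO ZT22 replicate 1 (adjusted p = 0.051 each).

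Cps1 averaged 4382 ± 968 CPM in SPF WT and 4782 ± 646 CPM in SPF LKO livers (adjusted p = 0.32), and 5869 ± 948 and 5939 ± 508 CPM in GF livers (adjusted p = 0.83). Otc and Arg1 had log2 fold changes of -0.04 and -0.07 in SPF and 0.03 and -0.02 in GF mice, all within 1 SE of 0. Nags had log2 fold changes of 0.17 (adjusted p = 0.087) and 0.11 (adjusted p = 0.36).

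Whether the genotype difference itself changed with microbial status was tested by the interaction term over all 72 libraries. By edgeR, 0 of 8 members passed, where 0.438% of all genes did. On simulated counts this test called 57 of 100 genes given a 1.5-fold interaction, so smaller ones could go undetected. At an unadjusted p under 0.05 there was 1 member, Asl, and DESeq2 called 0. For Asl the interaction was -0.46 on the log2 scale (SE 0.22, adjusted p = 0.73), and it was -0.22 without the 2 libraries whose clock genes went against their label.

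Scaling mattered for the smaller shifts. With library totals in place of TMM factors, the median of all genes moved to 0.10 in the SPF and 0.18 in the GF genotype comparison. The members called higher and lower then numbered 4 and 1 in SPF mice and 6 and 1 in GF mice, against 2 and 2 in each under TMM. Over all genes, library totals called 3502 higher and 856 lower of 13159 in SPF mice, and 6050 and 870 of 12662 in GF mice. With TMM these were 1527 and 1516 in SPF mice and 1970 and 1929 in GF mice. The directions of Asl, Ass1 and Slc25a15 and their calls were the same under both, whereas Slc25a13 was no longer called. Since these were bulk samples, fewer cells of a type and less RNA per cell cannot be told apart. The summed level of 6 periportal markers (Hal, Sds, Cyp2f2, Hsd17b13, Sult5a1 and Cdh1, none at 0) ranged from 1477 to 2358 CPM in SPF WT, 1496 to 2041 CPM in SPF LKO, 1460 to 2314 CPM in GF WT and 1298 to 1772 CPM in GF LKO livers, and 1 of the 6 was called lower in SPF LKO and 2 in GF LKO mice. Of 6 pericentral markers, 1 was higher and 1 lower in SPF LKO, and 1 higher and 3 lower in GF LKO mice. Of 4 Kupffer cell markers, 3 were lower in SPF LKO mice and 0 were called in GF LKO mice, and their summed level ranged from 166 to 409 CPM in SPF WT and 161 to 262 CPM in SPF LKO livers. The part of these cell types in the differences was not tested.

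**Figure D2:**
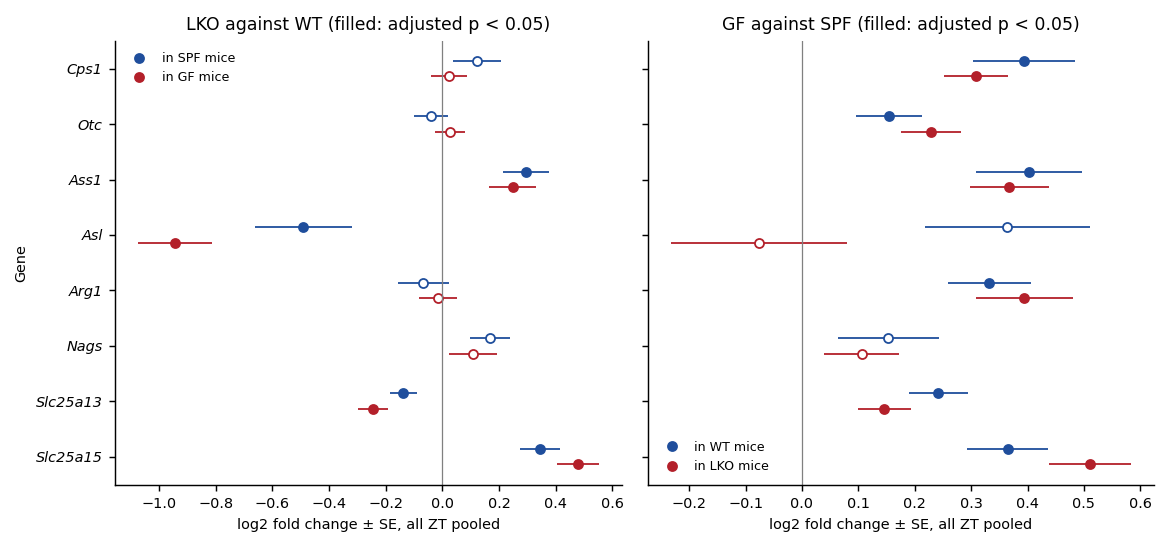
Log2 fold changes with standard errors for each member, all ZT pooled and 18 libraries a group, LKO against WT on the left and GF against SPF on the right, with filled points for an adjusted p under 0.05. Asl lies farthest to the left in the genotype comparison at -0.94 in GF mice, and in the microbial comparison 6 of 8 members are filled and to the right in each genotype.

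BMAL1 with its partner CLOCK binds the E-box, and clock output also runs through the D-box and the RORE element. RefSeq promoter entries (GRCm38.p6) were at hand for 5 of 8 members, Otc, Ass1, Nags, Slc25a13 and Slc25a15, the last with a pair of entries. Cps1, Asl and Arg1 had none. In the 250 bases before each start, both strands were searched for the E-box CACGTG, the D-box TTATGNAA and the RORE, and no match overlapped another. The E-box occurred in Ass1, Slc25a13 and Slc25a15, 3 of the 4 members called between genotypes, the fourth being Asl with no entry. For Slc25a15 it lay in 1 of its 2 entries, so 3 of the 6 entries held it, beside 6.02% of all 32807 promoter entries of that length. The D-box occurred in Otc (3.07% of promoters), and the RORE in none of the members (0.177%). Stretches of 30 bases around each match are shown because they hold the letters the clock factors are known to bind, written 5′ to 3′ on the gene's strand with the motif in capitals:
Ass1, E-box beginning 36 bases before the start, chr2:31470222-31470251, plus strand: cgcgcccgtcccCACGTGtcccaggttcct
Slc25a13, E-box beginning 125 bases before the start, chr6:6217281-6217310, minus strand: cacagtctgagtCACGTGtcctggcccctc
Slc25a15, E-box beginning 77 bases before the start, chr8:22398337-22398366, minus strand: cgccctgccgcaCACGTGccgcggctccgg
Otc, D-box beginning 143 bases before the start, chrX:10252151-10252180, plus strand: gcataaatacaTTATGAAAaacgaagaggc
The Ass1 stretch lies within an exon of the count table's annotation, the Slc25a15 stretch within the gene but outside its exons, and the others before the gene. The 3 members with the E-box did not share a direction, Ass1 and Slc25a15 being higher and Slc25a13 lower in LKO livers. A match describes these letters only.

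Within single time points, 4 of 48 member tests were called in SPF mice and 12 of 48 in GF mice, beside 4.92% and 7.99% of all gene by ZT tests. Each compared 3 libraries with 3, so even sizeable differences could go undetected. In GF mice Asl was lower in LKO livers at all 6 ZT, with calls at ZT2, ZT14 and ZT18 that 3, 6 and 5 of 12 single libraries each removed when left out (adjusted p up to 0.13, 0.12 and 0.091). The smallest difference was at ZT2, where WT libraries had 445, 457 and 485 CPM and LKO libraries 368, 315 and 322 CPM (log2 fold change -0.46, adjusted p = 0.025). The largest was at ZT14, with 971, 986 and 1016 CPM against 355, 364 and 529 CPM (log2 fold change -1.26, adjusted p = 0.026). In SPF mice Asl was called at ZT10, where 634, 567 and 556 CPM stood against 265, 377 and 296 CPM (log2 fold change -0.91, adjusted p = 0.0078), and at ZT22 (-0.63, adjusted p = 0.016), the latter lost without any of 3 single libraries (adjusted p up to 0.085). Without the 2 libraries that went against their label, 8 of 48 SPF tests were called, the added ones being Asl and Slc25a15 at ZT14 and ZT18. Asl then had log2 fold changes of -0.80 and -0.78 and Slc25a15 of 0.61 and 0.61 at these times.

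The remaining calls were spread over the members. At ZT2 in SPF mice Cps1 rose from 3235, 3478 and 3197 CPM in WT to 5244, 5366 and 4510 CPM in LKO livers (log2 fold change 0.59, adjusted p = 0.0080), and Ass1 rose from 501, 475 and 468 CPM to 842, 862 and 684 CPM (0.71, adjusted p = 0.014). The 3 libraries of each group did not overlap in either gene. In GF mice Ass1 was higher at ZT6 (0.73), Slc25a13 was lower at ZT6 (-0.43), and Slc25a15 was higher at ZT10 (0.70) and ZT14 (0.66). Nags was higher in GF LKO mice at ZT10 and ZT14, with 41.2, 40.8 and 50.7 CPM in WT against 71.7, 65.8 and 65.3 CPM in LKO livers at ZT14 (0.61, adjusted p = 0.047). Many of these calls depended on single libraries. The Ass1 call at ZT2 in SPF mice was lost without SPF WT ZT2 replicate 3 or SPF LKO ZT2 replicate 1 or 2 (adjusted p up to 0.057), and that at ZT6 in GF mice without GF LKO ZT6 replicate 1 (0.060). The Slc25a13 call at ZT6 was lost without any of 10 of the 12 libraries in its fit (adjusted p up to 0.15), the Nags calls without any of 7 at ZT10 and 8 at ZT14 (up to 0.13 and 0.17), and the Slc25a15 calls without any of 3 at ZT10 and 5 at ZT14 (up to 0.13 and 0.066). The Cps1 call at ZT2 was kept in 12 of 12, with adjusted p up to 0.038.

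**Figure D3:**
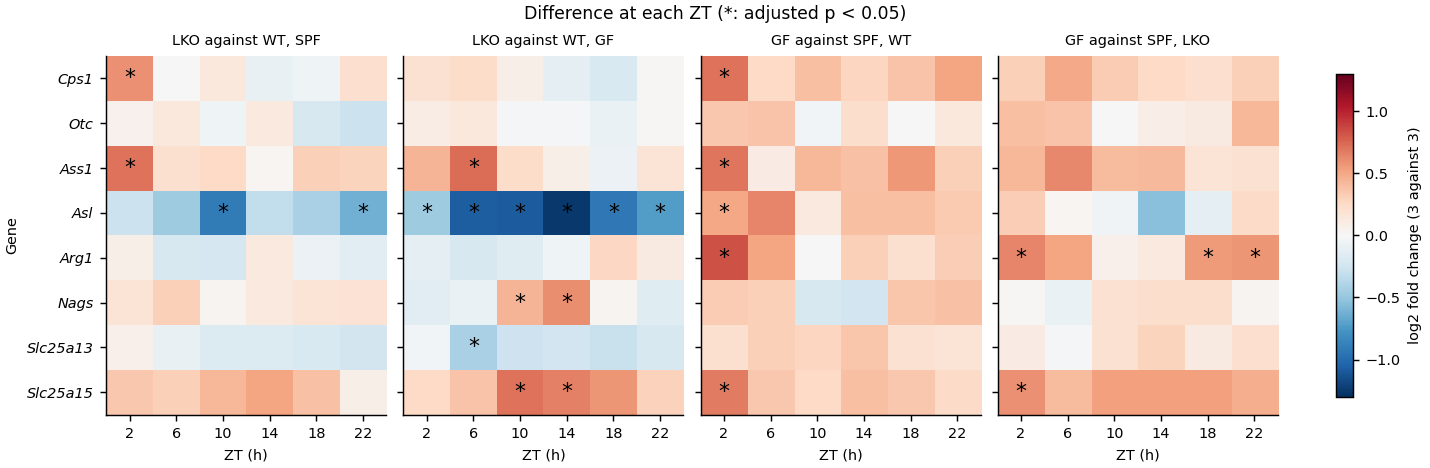
Log2 fold change of each member at each ZT in hours, 3 libraries against 3, for the 4 comparisons, on a colour scale from blue (lower) to red (higher), with asterisks for an adjusted p under 0.05. The Asl row is blue with asterisks at all 6 ZT for LKO against WT in GF mice, and GF against SPF in WT mice has its 5 asterisks at ZT2.

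GF mice had higher levels of most members than SPF mice, in both genotypes. In WT mice 6 of 8 members rose and 0 fell, where 31.8% of all genes were called and 14.2% were called higher. In LKO mice it was also 6 of 8, where 36.4% were called and 18.1% were called higher. The 6 were the same genes in both comparisons, which share no libraries with each other but share each group with a genotype comparison: Cps1, Otc, Ass1, Arg1, Slc25a13 and Slc25a15. The median log2 fold change of the members was 0.35 in WT and 0.27 in LKO mice, beside -0.02 over all genes tested in each. The members' share of all counts had a median of 0.841% in SPF WT, 0.970% in SPF LKO, 0.989% in GF WT and 1.13% in GF LKO libraries. These are shares of unscaled counts, which also move when abundant genes such as Alb change. With TMM factors the median log2 fold change of the members between genotypes was 0.04 in SPF and 0.02 in GF mice.

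Cps1 rose from a range of 3197 to 6530 CPM (median 4093) in SPF WT to 4124 to 7447 CPM (median 5822) in GF WT livers, with a log2 fold change of 0.39 (SE 0.09, adjusted p = 0.0011). The ranges overlapped, and all 3 GF libraries exceeded all 3 SPF libraries at 5 of 6 ZT. In LKO mice Cps1 rose from 3480 to 5869 CPM (median 4764) to 5074 to 6705 CPM (median 5972), with a log2 fold change of 0.31 (SE 0.06, adjusted p = 6.80e-05). Arg1 rose by 0.33 in WT (SE 0.07, adjusted p = 0.00077) and 0.39 in LKO mice (SE 0.09, adjusted p = 0.00051) on the log2 scale. Its medians were 1475 CPM in SPF WT, 1405 CPM in SPF LKO, 1860 CPM in GF WT and 1864 CPM in GF LKO livers, so the medians of the 2 GF groups lay together above those of the 2 SPF groups. The ranges overlapped in both genotypes, and at ZT10 the log2 fold change of Arg1 was 0.006 in WT and 0.064 in LKO mice. Ass1 rose by 0.40 and 0.37 and Otc, the most stable member, by 0.15 (adjusted p = 0.042) and 0.23 (adjusted p = 0.00094). The Otc call in WT mice was lost without the 4 libraries that stood apart (adjusted p = 0.053) and without any of 14 single libraries, with adjusted p up to 0.068.

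Both carriers rose as well. Slc25a15 rose by 0.36 in WT (SE 0.07, adjusted p = 0.00021) and 0.51 in LKO mice (SE 0.07, adjusted p = 1.50e-06), and in LKO mice all 3 GF libraries exceeded all 3 SPF libraries at 6 of 6 ZT. Its group means were 486 ± 73.6 CPM in SPF WT, 619 ± 91.6 CPM in SPF LKO, 638 ± 93.5 CPM in GF WT and 885 ± 135 CPM in GF LKO livers (SD, n = 18 each), so it was highest where both the hepatocyte clock and the microbes were missing. Slc25a13 rose by 0.24 and 0.15, and in WT mice the GF libraries exceeded the SPF libraries at 6 of 6 ZT. Nags had log2 fold changes of 0.15 (adjusted p = 0.19) and 0.11 (adjusted p = 0.22).

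Asl was not called in either genotype, although its log2 fold change in WT mice lay between those of Arg1 (0.33) and Cps1 (0.39). In WT mice its GF mean was 698 ± 203 CPM against 532 ± 176 CPM in SPF mice, higher at 6 of 6 ZT, with a log2 fold change of 0.36 (SE 0.15, adjusted p = 0.053). The pooled test fitted no ZT term, so its spread included change over the day. Asl passed with ZT as a covariate (adjusted p = 3.36e-05), with relative log expression factors (0.045) and with DESeq2 (0.038). In LKO mice the means were 361 ± 93.8 CPM in GF and 380 ± 186 CPM in SPF livers, with a log2 fold change of -0.08 (SE 0.16, adjusted p = 0.73), which turned to 0.16 (adjusted p = 0.28) without the 2 libraries that went against their label. Under library totals the median of all genes moved to -0.19 in WT and -0.13 in LKO mice. There 4 and 5 members were called, all higher, with Slc25a13 lost in both and Otc at -0.01 in WT mice. Over all genes, 449 were called higher and 5887 lower of 12776 in WT mice, and 993 and 4564 of 13010 in LKO mice. Hepatocyte markers moved with microbial status too: 4 of 4 tested were higher in GF WT than in SPF WT livers, with a median log2 fold change of 0.33, and 2 were higher and 1 lower in LKO mice. Their summed level, most of it Alb, ranged from 75087 to 125316 CPM in SPF WT and 105652 to 159990 CPM in GF WT livers. It ranged from 36771 to 120012 CPM in SPF LKO and 44050 to 64828 CPM in GF LKO livers. Of 6 pericentral markers, 3 were higher in GF WT mice (median log2 fold change 0.24) and 1 was lower in GF LKO mice, and of 4 endothelial markers 2 were lower in GF WT and 1 in GF LKO mice. The 6 periportal markers had 0 called in GF WT mice (median log2 fold change 0.019) and 1 lower in GF LKO mice (median -0.14). Kupffer cell markers had 0 of 4 called in each genotype, and stellate and cholangiocyte markers each had 1 of 4 lower in each genotype. Of 4 leukocyte markers, Ptprc and S100a8 were tested, and both were lower in GF mice of either genotype. The summed level of all 4 leukocyte markers spanned 7.44 to 38.4 CPM in SPF WT, 5.46 to 11.8 CPM in GF WT, 6.15 to 16.9 CPM in SPF LKO and 5.55 to 10.6 CPM in GF LKO livers. The part of these cell types in the result was not tested.

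By time point, 5 of 48 member tests were called in WT and 4 of 48 in LKO mice, all higher in GF mice, beside 2.89% and 2.71% of all gene by ZT tests. In WT mice the 5 calls all fell at ZT2, early in the rest phase, where 6.13% of all genes were called higher. Arg1 rose there from 1106, 1003 and 1114 CPM in SPF to 2092, 1770 and 1963 CPM in GF mice (log2 fold change 0.83, adjusted p = 0.00105). The GF libraries lay well above the SPF libraries without overlap. Cps1 (0.71), Ass1 (0.70), Slc25a15 (0.68) and Asl (0.50) rose at the same time. The Ass1 call was lost without SPF WT ZT2 replicate 3 or GF WT ZT2 replicate 3 (adjusted p up to 0.056) and the Asl call without SPF WT ZT2 replicate 3 (0.052), whereas the Cps1, Arg1 and Slc25a15 calls were kept in 12 of 12. These 5 calls and the ZT2 calls of Cps1 and Ass1 between genotypes in SPF mice share the same 3 SPF WT libraries. The 2 sets of calls are therefore not independent. In these libraries the means of Cps1 (3303 CPM) and Ass1 (481 CPM) were the lowest of any group and ZT. In LKO mice Arg1 was called at ZT2 (0.64), ZT18 (0.55) and ZT22 (0.57) and Slc25a15 at ZT2 (0.60). The Arg1 call at ZT18 was lost without SPF LKO ZT18 replicate 1 or 2 or GF LKO ZT18 replicate 2 or 3 (adjusted p up to 0.086), and that at ZT22 without any of 3 single libraries (up to 0.075).

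Levels over the day were fitted with a sine and cosine of 24 h in each group of 18 libraries, which addresses which steps are rhythmic. In SPF WT mice 4 of 8 members had a 24 h rhythm, where 15.5% of all genes did. These were Cps1, Ass1, Asl and Arg1, with fitted peaks from ZT14.8 to ZT16.8, in the active dark phase when mice eat. The count was 3 of 8 in SPF LKO (22.2% of genes), 5 of 8 in GF WT (27.7%) and 3 of 8 in GF LKO mice (36%). In SPF LKO mice these were Ass1, Asl and Arg1, and the Ass1 call (amplitude 0.22, peak ZT20.4, adjusted p = 0.043) was lost without any of 9 of the 18 libraries (adjusted p up to 0.11). The Ass1 call in SPF WT mice (adjusted p = 0.021) was lost without SPF WT ZT6 replicate 3 (0.055).

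Asl was rhythmic in all 4 groups. In SPF WT mice it rose from 321 ± 7.39 CPM at ZT2 to 752 ± 164 CPM at ZT14 (SD, n = 3), with a log2 amplitude of 0.64, a peak at ZT15.3 and an adjusted p of 1.71e-05. In GF WT mice it rose from 463 ± 20.7 CPM at ZT2 to 991 ± 23.1 CPM at ZT14 (amplitude 0.53, peak ZT15.5, adjusted p = 2.04e-05). Both WT groups therefore peaked early in the night. In SPF LKO mice the amplitude was 0.63 with a peak at ZT16.0 (adjusted p = 0.0035), and without the 2 libraries that went against their label it was 0.38 with a peak at ZT16.3 (adjusted p = 0.0013). In GF LKO mice it was 0.39 with a peak at ZT18.1 (adjusted p = 0.0033). The test of a difference in Asl rhythm between genotypes gave an adjusted p of 0.12 in GF mice, which became 0.042 without GF WT ZT6 replicate 3 and 0.046 without GF LKO ZT14 replicate 3.

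Cps1 was rhythmic in both WT groups, with amplitudes of 0.33 (adjusted p = 0.0056) in SPF and 0.27 (adjusted p = 0.0051) in GF mice, and did not pass in LKO mice, with 0.16 (adjusted p = 0.13) and 0.07 (adjusted p = 0.42). The difference of its rhythm between genotypes did not pass either, at an adjusted p of 0.28 in SPF and 0.080 in GF mice. Arg1 was rhythmic in SPF WT (amplitude 0.30, peak ZT14.8), SPF LKO (0.33, ZT15.5) and GF LKO mice (0.28, ZT19.1), and had an amplitude of 0.06 in GF WT mice (adjusted p = 0.63). Slc25a13 passed in GF WT mice (0.18, ZT13.0). Otc did not pass in any group. Slc25a15 did not either with all libraries, and passed in SPF LKO mice without the 2 libraries that went against their label (0.21, ZT16.0, adjusted p = 0.013).

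The difference between rhythms was tested directly. Amplitude and peak time were tested together, so a call does not say which of them differed. Between genotypes in GF mice 2 of 8 members passed, Ass1 and Nags, where 6.04% of genes did. Ass1 went from an amplitude of 0.33 peaking at ZT17.7 in GF WT to 0.06 in GF LKO mice (adjusted p = 0.039). In GF WT livers Ass1 had 658, 646 and 506 CPM at ZT6 and 1021, 1047 and 917 CPM at ZT18, whereas in GF LKO livers it had 1268, 818 and 913 CPM at ZT6 and 908, 809 and 1070 CPM at ZT18. The ZT6 and ZT18 libraries were separate in WT and overlapped in LKO mice. This call was lost without any of 14 of the 36 libraries, with adjusted p up to 0.11, among them GF WT ZT6 replicate 3 (0.073), and with ZT as a factor (0.19). Nags had amplitudes of 0.31 in GF WT and 0.26 in GF LKO mice, with fitted peaks at ZT21.8 and ZT16.1 respectively (adjusted p = 0.0052). This call was kept without each of the 36 libraries.

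Between GF LKO and SPF LKO mice Arg1 passed, 1 of 8 members where 4.96% of genes did. Its amplitudes were 0.33 and 0.28, with the peak at ZT15.5 in SPF LKO and ZT19.1 in GF LKO mice (adjusted p = 0.032), a call lost without any of 10 of the 36 libraries (adjusted p up to 0.060). In SPF LKO livers Arg1 was highest at ZT14, at 1791, 1778 and 1834 CPM, and in GF LKO livers at ZT18, at 1896, 2245 and 2181 CPM. Between genotypes in SPF mice 0 of 8 passed by edgeR (1.06% of genes), with 1 at an unadjusted p under 0.05 and 0 by DESeq2. Between GF WT and SPF WT mice 0 of 8 passed (0.0442% of genes), with 2 at an unadjusted p under 0.05 and 0 by DESeq2.

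**Figure D4:**
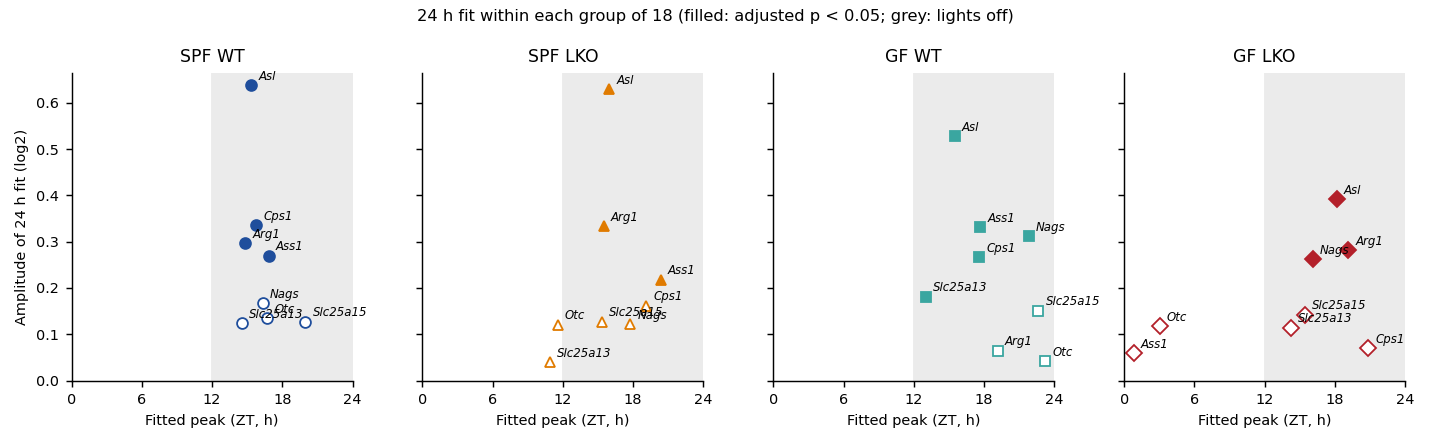
Log2 amplitude against fitted peak in ZT hours from the 24 h fit for each member in each group of 18 libraries, with filled symbols for an adjusted p under 0.05 and grey shading for lights off. Asl has the largest amplitude in all 4 groups, between 0.39 and 0.64, and every filled symbol lies in the dark phase.

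Over the 24 group by ZT means of log2 CPM, described without a test since the means share libraries and scaling, the member most like Cps1 was Ass1 (Pearson r = 0.92), which was also the most alike of 3847 genes compared. Asl was nearly unrelated to Ass1 (r = 0.10) and to Slc25a15 (r = -0.20), and tracked Slc25a13 (r = 0.74). The most alike genes for the other members were Mdh1 for Otc (r = 0.92), Aldh1l1 for Ass1 (0.95), Fgf1 for Asl (0.94), Ufsp2 for Arg1 (0.90), Mrap for Nags (0.85), Hacd3 for Slc25a13 (0.93) and Bhmt for Slc25a15 (0.93).

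The genes around the cycle are given by their counts, to be read against the 23.1% of all genes called between genotypes in SPF and 30.8% in GF mice. Of 9 genes of ammonia and glutamine handling, 8 were tested, and 1 was higher and 4 lower in SPF LKO, and 2 higher and 5 lower in GF LKO mice. Among these, Rhbg, an ammonia channel with a low level of 1.19 ± 0.37 CPM in SPF WT livers, fell by 0.62 on the log2 scale in SPF mice and by 1.06 in GF mice. Slc38a3, a glutamine transporter, fell by 0.51 and 0.65. Slc1a2, a glutamate transporter of pericentral hepatocytes, fell by 0.66 and 0.97. Glud1, which releases ammonia from glutamate, rose by 0.27 and 0.18, and Car5a, which supplies bicarbonate to CPS1, fell by 0.18 and 0.29. Glul, the glutamine synthetase that catches the ammonia escaping the cycle, fell by 0.34 in GF mice (adjusted p = 6.61e-05) and had a log2 fold change of -0.10 in SPF mice (adjusted p = 0.23). Slc1a2, Glul and Oat also stood on the pericentral marker list.

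Of 8 genes that supply aspartate or use fumarate, 2 were higher and 1 lower in SPF LKO, and 2 higher and 3 lower in GF LKO mice. Got1, the cytosolic aspartate aminotransferase, rose by 0.58 and 0.45. Of 12 genes of arginine and ornithine side routes, 8 were tested, with 2 higher and 2 lower in each. Oat, the ornithine aminotransferase of pericentral cells, rose by 0.76 and 0.55, Azin1, an inhibitor of antizyme, fell by 0.47 and 0.55, and Slc7a2, a cationic amino acid transporter, fell by 0.52 in SPF mice and had -0.40 in GF mice without passing the test. Of 12 known regulators, 1 was higher and 3 were lower in each, a share near that of all genes. Ppara, the fasting-linked nuclear receptor, fell by 0.67 and 0.80, and Klf15, a factor linked to amino acid breakdown, fell by 0.41 in SPF mice (adjusted p = 0.035) and had -0.23 in GF mice (adjusted p = 0.12).

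Between GF and SPF mice 31.8% of all genes were called in WT and 36.4% in LKO mice. In the aspartate and fumarate list 6 of 8 were higher and 0 lower in each genotype. Got1 rose by 0.88 in WT and 0.77 in LKO mice. The ammonia and glutamine list had 4 of 8 higher and 0 lower in WT and 1 higher and 1 lower in LKO mice, and the arginine and ornithine list had 3 higher and 1 lower in each. Among the regulators 0 were higher and 1 was lower in WT, and 1 was higher and 2 were lower in LKO mice. The shares of the regulators in both genotypes and of the ammonia and glutamine list in LKO mice lay below that of all genes.

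**Figure D5:**
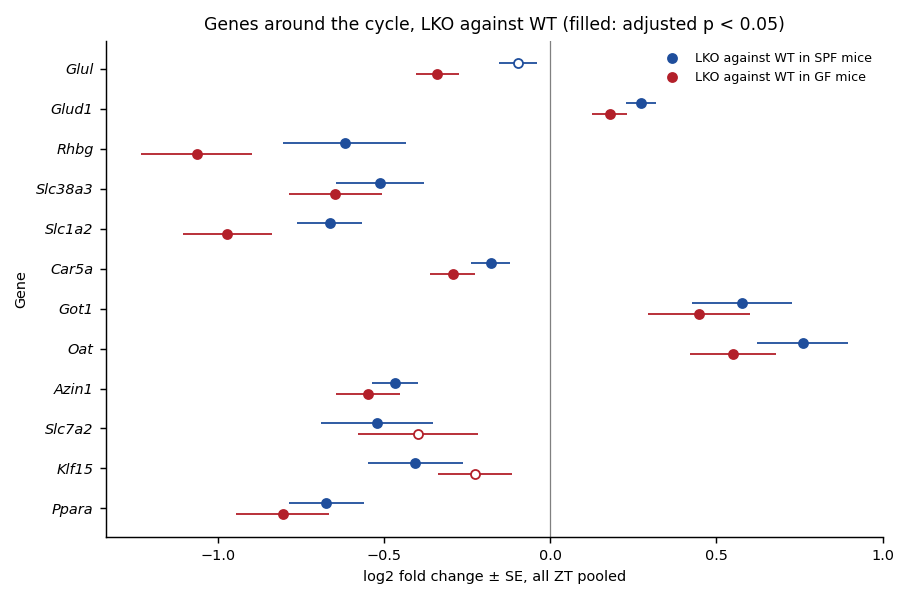
Log2 fold changes with standard errors, LKO against WT with all ZT pooled, for the named genes around the cycle in SPF (blue) and GF (red) mice, with filled points for an adjusted p under 0.05. Rhbg, Slc38a3, Slc1a2 and Ppara lie to the left and Got1 and Oat to the right in both microbial states.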

How the data were processed

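Livers were flash frozen, RNA was extracted with TRIzol, and libraries were made with a stranded mRNA kit. The authors aligned single-end reads to mm10 (GRCm38) with STAR 2.6.1b and deposited counts of reads per gene made with featureCounts 2.0.0 on exons, with no option set for strand, multiple mapping or overlapping genes, per the file headers. Such reads were therefore left out, which can lower genes that overlap others. The counts were not normalized. A table of mouse gene names matched 55394 of 55573 identifiers.

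Counts were tested as deposited with edgeR 4.0.16 in R 4.3.3 (quasi-likelihood F test, TMM factors, filterByExpr, Benjamini-Hochberg over all genes tested, called at an adjusted p under 0.05). Genotypes and microbial states were compared with all ZT pooled (18 against 18), at each ZT (3 against 3, with 12 libraries sharing the spread), by an interaction term, and by 24 h harmonic regression within groups and between them. Harmonic regression replaced the empirical JTK_CYCLE of the study, which was not run. DESeq2 1.42.0 was an alternative. The tests were first checked on simulated counts, with the same dispersion for every gene and no change over the day beyond any put in. The real counts differ in this, so the shares recovered need not hold for them. With 3 against 3, 4 of 100 genes changed 1.5-fold and 26 of 100 changed 2-fold were recovered. With 18 against 18 these were 92 and 100 of 100.

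All 8 members are named. From the other gene lists the text names Glul, Car5a, Glud1, Klf15 and Ppara and genes called in a pooled genotype comparison with an absolute log2 fold change of at least 0.5. The members, lists and doubted libraries were chosen with earlier results of these data known. Replicates are separate libraries by their labels, and a p-value measures the spread between the libraries of a group. The pooled and interaction tests fitted no ZT term, so their spread includes change over the day as well as that between replicates. Depth was 17369927 to 22076113 counts a library. Python 3.11.15 and matplotlib 3.10.9 drew the plots.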

Additional observations from a re-analysis of the deposited data

Results flagged for a closer look

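The difference between rhythms passed the direct test, of amplitude and peak time together, for 3 members. Ass1 differed between GF WT and GF LKO mice (adjusted p = 0.0392), with log2 amplitudes of 0.33 and 0.06. Nags differed between the same groups (adjusted p = 0.00523), with fitted peaks at ZT21.8 and ZT16.1. Arg1 differed between SPF LKO and GF LKO mice (adjusted p = 0.0324), with fitted peaks at ZT15.5 and ZT19.1. When each of 36 libraries was left out in turn, the Ass1 call was lost in 14 cases, the Arg1 call in 10 and the Nags call in 0.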

How the results depend on the processing

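Most results kept their direction and side of the threshold. Library totals called 7 members between genotypes in GF mice (4 with TMM) and 0 rhythm differences between GF and SPF LKO mice (1 with TMM), and no filter on low counts called 2 members between genotypes in SPF mice (4 with it). That rhythm count was also 0 with no filter, 0 with ZT as a factor and 2 with DESeq2, and the one between genotypes in GF mice was 1 with ZT as a factor (2 with the harmonic). Calls by ZT between genotypes in SPF mice (4) numbered 7 with no filter and 8 without 2 or 4 libraries. Those between GF and SPF WT mice (5) numbered 3 with library totals, 10 with no filter and 14 with DESeq2, and in LKO mice (4) they numbered 11 with no filter and 17 with DESeq2. The counts over all genes moved too. Between genotypes in GF mice, library totals called 6920 of 12662 genes (3899 with TMM). In SPF mice 2755 of 31634 genes were called with no filter and 3043 of 13159 with it. Counts over all genes under these settings are not given here for the rhythm tests and the calls by ZT. The cause of these shifts was not tested. Leaving out single libraries gave 2 to 4 members between genotypes in SPF mice, the 2 without SPF WT ZT14 replicate 2, 0 to 2 rhythm differences between GF and SPF LKO mice, 1 to 4 between genotypes in GF mice, and 3 to 8 calls by ZT between GF and SPF WT mice.

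Reversed values were all of members not called, except Otc between GF and SPF WT mice at -0.014 under library totals. Library totals also reversed Arg1 between genotypes (0.16 in GF and 0.037 in SPF mice), Otc between genotypes in SPF mice (0.068), Nags between GF and SPF mice (-0.0068 in LKO and -0.017 in WT) and the interactions of Ass1 (0.017) and Nags (0.010). Asl between GF and SPF LKO mice was 0.16 without 2 libraries, 0.16 without 4 libraries and -0.12 to 0.058 without single ones. Between genotypes in GF mice Cps1 was -0.0022 without 4 libraries and -0.0022 to 0.047 without single ones, and Arg1 was -0.035 to 0.011. Same-numbered libraries did not deviate together and share only a number. With the replicate block, Asl between GF and SPF LKO mice was 0.0097, and no count moved by over 1.5 times. With 3 libraries a group at each ZT, even sizeable differences could go undetected.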
